A study of Mus musculus with 20 samples.

Results

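The interaction of Tet2 knockdown and the histone deacetylase inhibitor CI994 was measured in M3 cells as a difference of differences: the change between shTet2 and shControl cells under CI994 minus the same change without CI994. Its value rests on 8 of the 20 libraries of the series, 4 groups with 2 libraries each. The spread in its test comes from all 12 M3 shRNA libraries, which include those with an shRNA against Mbd3. It was tested in 12808 of the 24454 genes in the files. These had a CPM (reads per gene scaled to a common library total) of at least 0.5 in 2 or more of the 12 libraries. No readout was used to choose the libraries. M3 is a single stable mesenchymal clone of the mouse mammary tumour line Py2T, itself derived from an MMTV-PyMT tumour, so every comparison describes 1 clone. The 4 groups were shTet2 with 2 µM CI994 for 72 hours, shControl with the same CI994 treatment, shTet2 without CI994 and shControl without CI994. Whether the groups without CI994 received a vehicle, and how many shRNAs were used per target, is not given in the sources used here. RNA came from 2 independent experiments per the labels, and nothing states that a replicate number marks the same experiment in every group.

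Tet2 oxidises 5-methylcytosine, a step towards the removal of DNA methylation, and can also bring other chromatin regulators to genes. CI994 inhibits class I histone deacetylases, enzymes that remove acetyl groups from histones and act within repressor complexes, so both interventions touch enzymes of chromatin. A positive interaction means that the effect of the knockdown was higher under CI994 than without it, and equally that the response to CI994 was higher in shTet2 than in shControl cells. Log2 values below are on the scale of CPM + 0.5, which compresses changes of genes near 0, and errors after ± are standard errors of the fit.

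The 8 libraries held 19882207 to 24977595 reads, and 0 reads in 1 of them allow up to 3 reads, 0.120 to 0.151 CPM. The library labelled shControl replicate 1 stood apart: its log2 difference from replicate 2 fell by 1.77 between the lowest and the highest decile of genes by GC content, against changes of -0.39 to 0.01 in the other 5 pairs. The spread of that pair (SD of the half-difference over genes) was 0.351, against 0.103 to 0.122 in the others, and Mbd3 measured 22.1 and 27.7 CPM in untreated shMbd3, against 5.40 CPM in this library, whose label names no Mbd3 shRNA, and 66.5 CPM in its replicate. Itga8 measured 1.56 and 1.89 CPM in shTet2 and 0.543 and 0.803 CPM in shMbd3, against 36.2 CPM in this library and 30.2 CPM in its replicate. The library enters the untreated arm directly and the shared spread of every test, so results are also given without it, in which case untreated shControl is 1 library taken to vary like the other groups. Of markers of other cell types, 12 of 14 haematopoietic and all 11 endothelial markers stayed under 1 CPM in every one of the 8 libraries, and the T cell gene Cd8a, the B cell gene Ms4a1 and the myeloid genes Itgam, Adgre1 and Tyrobp were at 0 reads throughout. The haematopoietic markers summed to 20.7 and 19.1 CPM in shTet2 with CI994, 10.8 and 10.3 CPM in shControl with CI994, 3.83 and 3.24 CPM in shTet2, and 1.88 and 2.97 CPM in shControl, most of it from the lysosomal gene Cd68 where CI994 was given. Their part in the results was not tested.

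Tet2 itself measured 6.30 and 7.42 CPM in shTet2 with CI994, 8.13 and 11.4 CPM in shControl with CI994, 8.41 and 7.97 CPM in shTet2, and 15.1 and 13.8 CPM in shControl. Both shTet2 libraries lay below both shControl libraries in either arm. The knockdown lowered Tet2 by a log2 change of -0.76 ± 0.18 without CI994 (limma, Benjamini-Hochberg adjusted p = 0.0176), while the change with CI994 was -0.47 ± 0.18 and did not pass in the 12 libraries (adjusted p = 0.127), though it did without shControl replicate 1 (adjusted p = 0.0373). Its interaction was 0.29 ± 0.26 (adjusted p = 0.771).

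Of the 12808 genes 88 showed an interaction past an adjusted p of 0.05, 0.687% of those tested, 53 of them positive and 35 negative, and 1482 had an unadjusted p under 0.05. Without shControl replicate 1 the count was 815 (6.36%), 388 positive (3.03%) and 427 negative (3.33%). Of the 88 genes 83 passed in both fits with the same sign, 48 positive and 35 negative. The other 5 were Ccl21b, Ccl21c, Ccl21d, Gm10591 and Gm13304, copies in 1 gene family with the same value in each library, so that they stand for 1 measurement at most. After removal of each library's trend along GC content 80 of the 88 passed, and 38 passed in edgeR on whole reads. With the 4 groups of the interaction alone 0 genes passed in limma, and 1083 had an unadjusted p under 0.05. On linear CPM the difference of differences had the same sign for 86 of the 88, the exceptions being Bst1 and Pgm5. The count rested on single libraries: it was 4900 without shControl replicate 2, 0 without replicate 1 of shTet2, 12 without its replicate 2, and 0 and 1 without replicate 1 or 2 of shTet2 with CI994. It was 1 and 12 without replicate 1 or 2 of shControl with CI994, 25 without either shMbd3 library and 40 without either shMbd3 library with CI994.

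**Figure D1:**
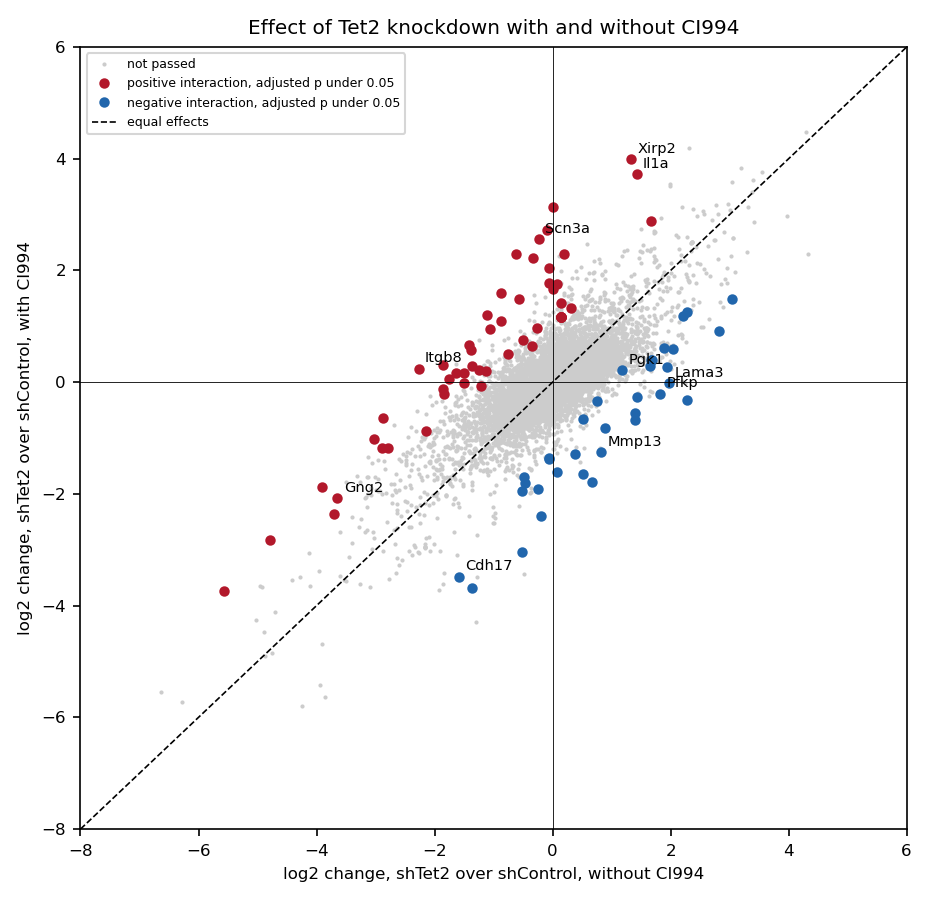
Each point is 1 of 12808 tested genes, with the log2 change of shTet2 over shControl without CI994 on the x axis and with CI994 on the y axis, on the CPM + 0.5 scale. Coloured points are the 53 positive (red) and 35 negative (blue) interactions, which lie off the dashed line of equal effects, and the labelled genes are described in the text except Gng2, which was labelled after its values were seen.

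The knockdown arms show what lay behind the 88 calls. Among the 53 positive interactions the knockdown raised 20 genes with CI994 without passing in the untreated arm, and lowered 16 genes without CI994 without passing under CI994. A further 12 changed in the same direction in both arms and 5 in opposite directions. Among the 35 negative interactions the knockdown raised 11 genes in the untreated arm alone, lowered 10 in the CI994 arm alone, changed 11 the same way in both arms and 3 in opposite ways. Across all genes the knockdown passed for 15.9% with CI994, 6.68% higher and 9.24% lower, and for 23.4% without it, 10.4% higher and 12.9% lower. Read as responses to CI994, 31 of the positive interactions rose in shTet2 alone and 11 fell in shControl alone, while 16 of the negative interactions rose in shControl alone and 2 fell in shTet2 alone. The rest passed in both lines. Of the positive ones 4 moved in the same direction and 7 in opposite directions, and of the negative ones 9 and 8. Across all genes CI994 passed for 24.3% in shTet2, 12.6% higher and 11.7% lower, and for 33.6% in shControl, 17.9% higher and 15.7% lower. The sign of an interaction fixes which way a gene that passed in 1 arm alone can have moved, so these counts describe the genes and are no further test.

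Among the 10 largest positive interactions were genes at or near 0 without CI994. Scn3a (gene 20269, chr2:65457118-65567591, GRCm38.p6), a voltage-gated sodium channel of neurons, measured 21.4 and 15.2 CPM in shTet2 with CI994, 2.68 and 2.57 CPM in shControl with CI994, 0.0472 and 0 CPM in shTet2, and 0.0458 and 0.192 CPM in shControl. Both libraries of the combination lay above all others, and the untreated groups overlapped at or under the level that 0 reads allow, apart from 1 shControl library. CI994 raised Scn3a in both lines, by 5.13 ± 0.20 on the log2 scale in shTet2 and by 2.34 ± 0.20 in shControl, and the interaction was 2.79 ± 0.28 (adjusted p = 0.0106). Slc6a13 (gene 14412, chr6:121300288-121337721), a transporter of GABA and taurine, measured 12.4 and 5.95 CPM in shTet2 with CI994, 0.841 and 0.302 CPM in shControl with CI994, 0 and 0.0498 CPM in shTet2, and 0 and 0.0479 CPM in shControl. The combination was again above every other library, its replicates differed more than those of Scn3a, and the interaction was 3.12 ± 0.51 (adjusted p = 0.0324).

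Sema4f, a membrane-bound semaphorin of axon guidance, measured 18.2 and 12.8 CPM in shTet2 with CI994, 2.08 and 1.66 CPM in shControl with CI994, 0.283 and 0.398 CPM in shTet2, and 0.229 and 0.623 CPM in shControl. CI994 raised it in both lines, more so in shTet2, with an interaction of 2.82 ± 0.34 (adjusted p = 0.0158). Stmn2, a neuronal regulator of microtubules, measured 3.21 and 2.24 CPM in shTet2 with CI994, 0.200 and 0.352 CPM in shControl with CI994, 0 and 0.0498 CPM in shTet2, and 0.0915 and 0 CPM in shControl. Its groups without CI994 could not be told from 0 reads, and its interaction was 2.09 ± 0.31 (adjusted p = 0.0235). It was the 1 call among the 11 of 30 neuronal genes that could be tested, where 0.414% of all genes passed as higher. Of those 30 neuronal genes 21 stayed under 1 CPM in all 8 libraries. Xirp2, an actin-binding protein of striated muscle, measured 11.2 and 8.94 CPM in shTet2 with CI994, 0.280 and 0.0503 CPM in shControl with CI994, 0.661 and 0.797 CPM in shTet2, and 0 and 0 CPM in shControl. The knockdown raised Xirp2 in both arms, and the limma interaction was 2.67 ± 0.28 (adjusted p = 0.0106), but as a ratio of counts, with shControl at 0 reads, the fitted interaction was -1.27 in edgeR and -0.58 in DESeq2. For such genes the sign depends on the scale.

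A pair of genes of interleukin-1 signalling was also among the largest positive interactions. Il1a, which encodes the cytokine interleukin-1 alpha, measured 8.03 and 7.42 CPM in shTet2 with CI994, 0.0400 and 0.201 CPM in shControl with CI994, 1.04 and 1.74 CPM in shTet2, and 0.275 and 0.144 CPM in shControl. The knockdown raised it in both arms without overlap of the libraries, by 3.73 ± 0.24 on the log2 scale with CI994 and by 1.43 ± 0.24 without, and CI994 raised it in shTet2, by 2.09 ± 0.24, while the response in shControl was -0.21 ± 0.24 and did not pass. Il1rn, which encodes the receptor antagonist of the same cytokine family, measured 6.59 and 5.01 CPM in shTet2 with CI994, 0.480 and 1.16 CPM in shControl with CI994, 0.189 and 0.299 CPM in shTet2, and 0.412 and 0.958 CPM in shControl. Its response to CI994 was 3.05 ± 0.28 in shTet2 and 0.13 ± 0.28 in shControl. The interactions were 2.31 ± 0.34 for Il1a (adjusted p = 0.0235) and 2.92 ± 0.40 for Il1rn (adjusted p = 0.0210).

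Fry and Ccdc68 were expressed above the floor in all groups. Fry, a large scaffold protein that binds microtubules, measured 8.87 and 10.95 CPM in shTet2 with CI994, 1.52 and 1.91 CPM in shControl with CI994, 0.992 and 1.34 CPM in shTet2, and 1.88 and 1.39 CPM in shControl. The combination was high and the other 3 groups lay close together, with an interaction of 2.56 ± 0.35 (adjusted p = 0.0210). Ccdc68, a coiled-coil protein of the centriole, measured 19.4 and 19.4 CPM in shTet2 with CI994, 7.21 and 5.93 CPM in shControl with CI994, 5.24 and 6.18 CPM in shTet2, and 9.88 and 7.91 CPM in shControl. Here too only the libraries of the combination stood above the rest, and the interaction was 2.06 ± 0.26 (adjusted p = 0.0183). Both also passed in edgeR, with adjusted p = 0.0402 for Fry and 0.0334 for Ccdc68, whereas Scn3a, Slc6a13, Sema4f, Stmn2, Xirp2, Il1a and Il1rn did not, with adjusted p between 0.0528 and 0.829.

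Other positive interactions came from genes that the knockdown lowered most in untreated cells. Itgb8, an integrin subunit that binds latent TGF-beta, measured 2.62 and 2.55 CPM in shTet2 with CI994, 2.36 and 1.86 CPM in shControl with CI994, 1.28 and 0.647 CPM in shTet2, and 6.41 and 6.42 CPM in shControl. The lines were clearly apart without CI994, with a log2 change of -2.27 ± 0.22, but not under CI994, with 0.24 ± 0.22, since CI994 raised Itgb8 in shTet2 and lowered it in shControl. Its interaction was 2.51 ± 0.31 (adjusted p = 0.0174). Tnfsf10, which encodes the death ligand TRAIL, measured 0.592 and 0.671 CPM in shTet2 with CI994, 1.24 and 1.26 CPM in shControl with CI994, 0.283 and 0.299 CPM in shTet2, and 6.22 and 4.50 CPM in shControl. Untreated shControl was high and the other 3 groups low, with an interaction of 2.25 ± 0.27 (adjusted p = 0.0158).

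Itga8, an integrin subunit that pairs with integrin beta-1, measured 0.423 and 0.268 CPM in shTet2 with CI994, 2.48 and 2.67 CPM in shControl with CI994, 1.56 and 1.89 CPM in shTet2, and 36.2 and 30.2 CPM in shControl. Knockdown and CI994 each lowered it, and the combination was lowest. On the CPM + 0.5 scale the fall was less than the sum of the single log2 changes, with an interaction of 2.03 ± 0.27 (adjusted p = 0.0210). The combination lay below the added 0.5 CPM, which compresses its change, and in edgeR the interaction did not pass (adjusted p = 0.255). Itgb8 and Itga8 were the calls among 16 tested integrin subunits in the 12 libraries, 2 where 0.414% of all genes passed as higher. Itgb5 was called as well without shControl replicate 1, where 3.03% did, and the median of the list was 0.09, against -0.14 in the 12 libraries. Rtp4, an interferon-induced gene, measured 0.634 and 0.849 CPM in shTet2 with CI994, 2.52 and 2.06 CPM in shControl with CI994, 0.331 and 0.448 CPM in shTet2, and 5.77 and 6.32 CPM in shControl. The knockdown lowered Rtp4 in both arms, with log2 changes of -1.17 ± 0.18 under CI994 and -2.88 ± 0.18 without it, and the interaction was 1.71 ± 0.25 (adjusted p = 0.0225).

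**Figure D2:**
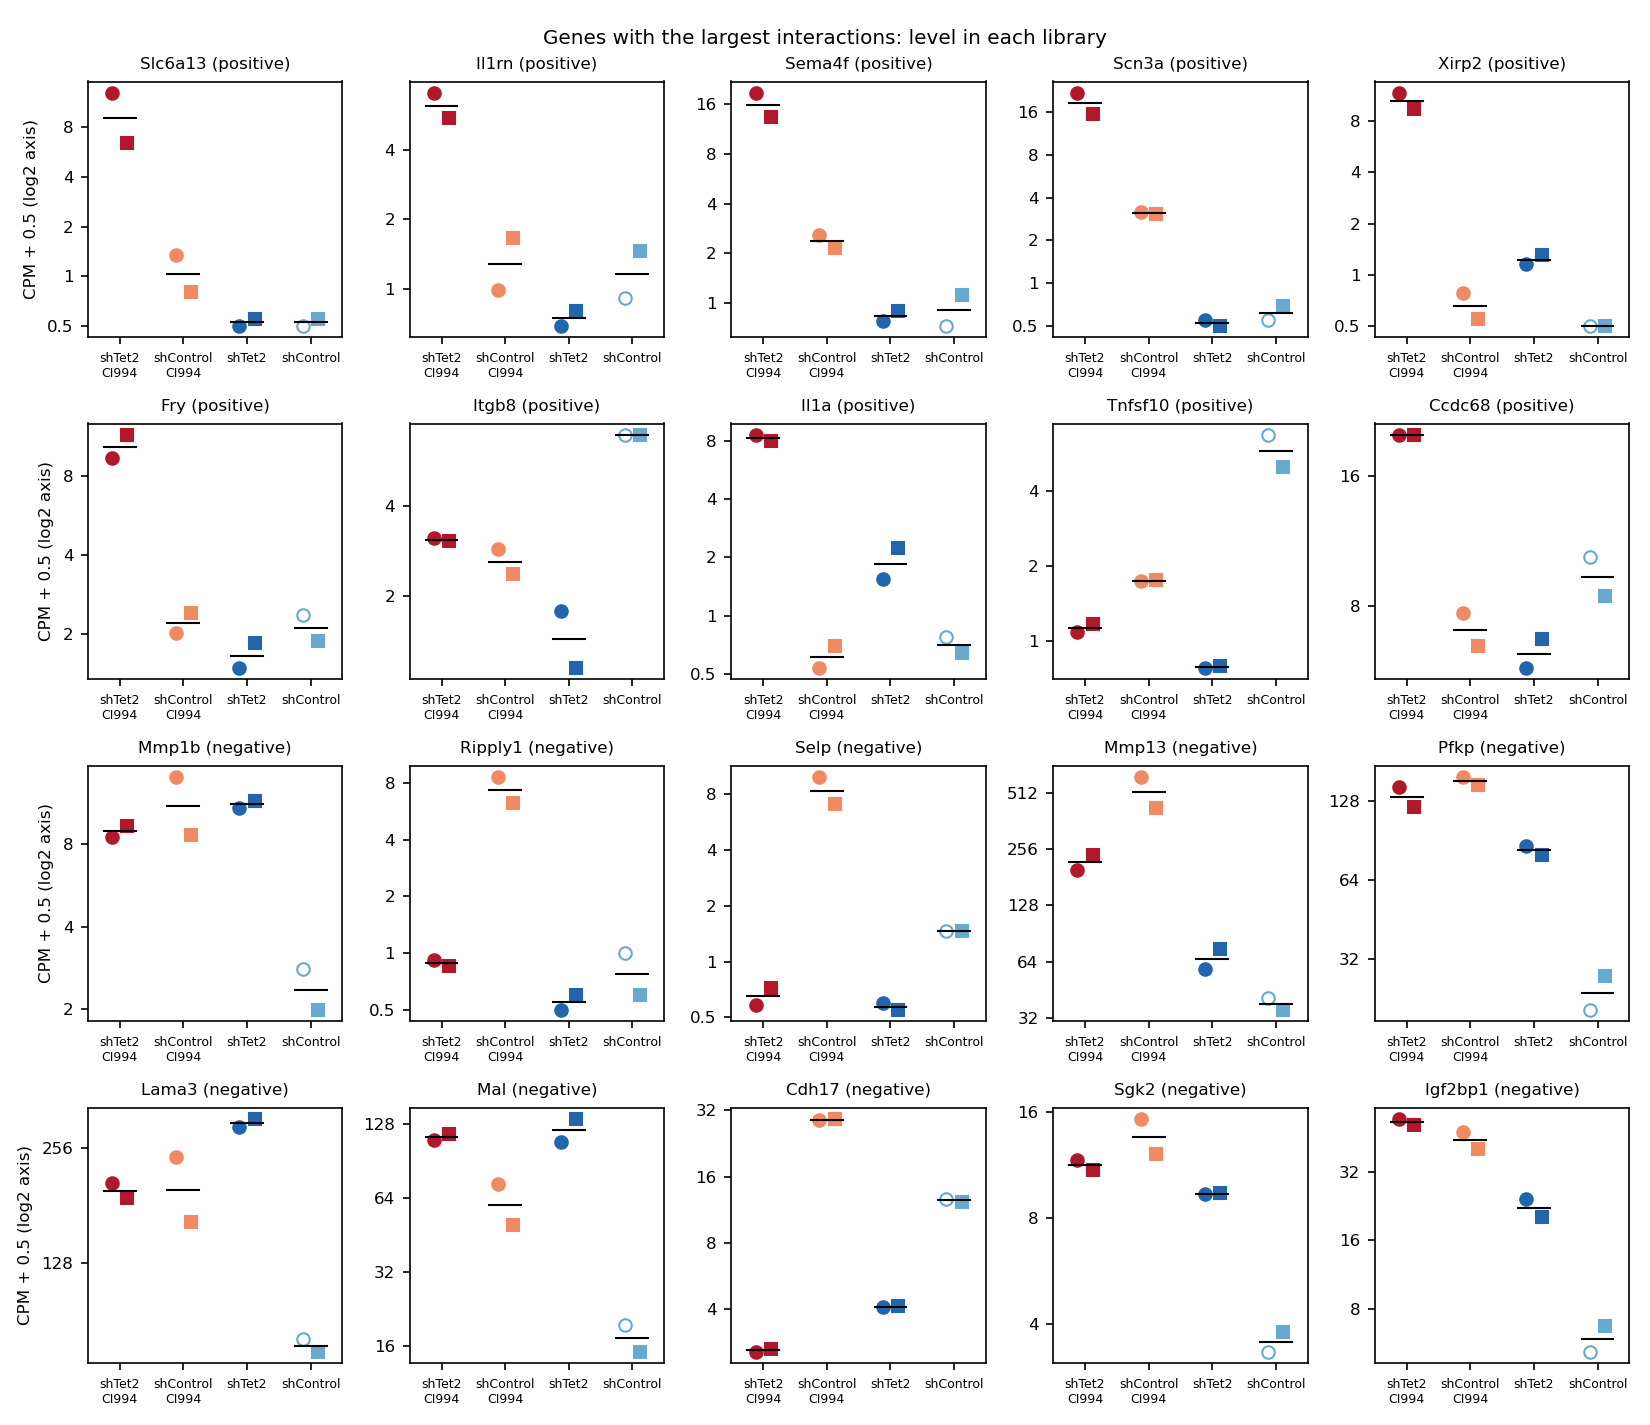
Levels of the 10 largest positive and 10 largest negative interactions among genes with a mean of at least 5 CPM in the highest group, as CPM + 0.5 on a log2 axis with its own range in each panel. Circles are replicate 1, squares replicate 2, the open circle is shControl replicate 1 and bars are the means of log2 values of each group (n = 2). Slc6a13, Sema4f and Scn3a are highest in shTet2 with CI994, Tnfsf10 and Itgb8 are high in untreated shControl, and Pfkp, Lama3 and Mmp1b are low in untreated shControl.

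The largest negative interactions fell into genes low in untreated shControl and genes high in shControl with CI994. Pfkp (gene 56421, chr13:6579874-6649060), the platelet-type phosphofructokinase of glycolysis, measured 143 and 121 CPM in shTet2 with CI994, 157 and 146 CPM in shControl with CI994, 85.4 and 79.3 CPM in shTet2, and 20.04 and 27.2 CPM in shControl. Either intervention alone raised it, and the shTet2 and shControl lines no longer differed past the threshold under CI994. The knockdown effect was -0.20 ± 0.14 with CI994 and 1.83 ± 0.14 without it, an interaction of -2.03 ± 0.20 (adjusted p = 0.0106). Igf2bp1, an oncofetal RNA-binding protein, measured 53.9 and 50.9 CPM in shTet2 with CI994, 47.5 and 39.6 CPM in shControl with CI994, 23.7 and 19.8 CPM in shTet2, and 4.67 and 6.18 CPM in shControl. Its order of groups was similar, with the combination highest, and its interaction was -1.68 ± 0.25 (adjusted p = 0.0237). Sgk2, a serine/threonine kinase, measured 11.2 and 10.5 CPM in shTet2 with CI994, 14.7 and 11.6 CPM in shControl with CI994, 8.83 and 8.92 CPM in shTet2, and 2.84 and 3.31 CPM in shControl, with an interaction of -1.69 ± 0.24 (adjusted p = 0.0216).

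Lama3, Mal and Dsp were also low in untreated shControl. Lama3, a laminin chain of the epithelial basement membrane, measured 207 and 189 CPM in shTet2 with CI994, 242 and 164 CPM in shControl with CI994, 291 and 305 CPM in shTet2, and 80.4 and 74.6 CPM in shControl. CI994 lowered it in shTet2 and raised it in shControl, log2 changes of -0.66 ± 0.20 and 1.32 ± 0.20, so that the treated lines overlapped, and the interaction was -1.98 ± 0.29 (adjusted p = 0.0216). Mal, a membrane protein of apical sorting in epithelia, measured 109.6 and 116 CPM in shTet2 with CI994, 72.1 and 49.0 CPM in shControl with CI994, 108 and 133 CPM in shTet2, and 19.1 and 14.7 CPM in shControl. The knockdown raised Mal in both arms and CI994 raised it in shControl, with an interaction of -1.92 ± 0.31 (adjusted p = 0.0320). Dsp, which encodes the desmosome protein desmoplakin, measured 264 and 248 CPM in shTet2 with CI994, 192 and 192 CPM in shControl with CI994, 211 and 213 CPM in shTet2, and 59.2 and 77.0 CPM in shControl. The knockdown raised Dsp by 0.41 ± 0.11 with CI994 and by 1.68 ± 0.11 without it, an interaction of -1.27 ± 0.15 (adjusted p = 0.0158).

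A second set was high in shControl cells under CI994. Cdh17 (gene 12557, chr4:11758157-11817905), the liver-intestine cadherin, measured 2.07 and 2.15 CPM in shTet2 with CI994, 28.4 and 28.7 CPM in shControl with CI994, 3.59 and 3.64 CPM in shTet2, and 12.2 and 11.8 CPM in shControl. The groups did not overlap, and CI994 moved Cdh17 in opposite directions, by -0.72 ± 0.14 in shTet2 and 1.18 ± 0.14 in shControl. The knockdown effect was -3.48 ± 0.14 with CI994 and -1.58 ± 0.14 without, an interaction of -1.90 ± 0.20 (adjusted p = 0.0106). Selp, the adhesion receptor P-selectin, measured 0.0845 and 0.224 CPM in shTet2 with CI994, 9.41 and 6.59 CPM in shControl with CI994, 0.0945 and 0.0498 CPM in shTet2, and 0.961 and 0.958 CPM in shControl. Its shTet2 libraries were near the floor with and without CI994, with an interaction of -2.32 ± 0.32 (adjusted p = 0.0210). Ripply1, a transcriptional repressor known from somite formation, measured 0.423 and 0.358 CPM in shTet2 with CI994, 8.09 and 5.78 CPM in shControl with CI994, 0 and 0.0996 CPM in shTet2, and 0.503 and 0.0958 CPM in shControl. The rise under CI994 was 3.22 ± 0.26 in shControl and did not pass in shTet2, at 0.69 ± 0.26, and the interaction was -2.53 ± 0.37 (adjusted p = 0.0232). In edgeR Cdh17 passed with adjusted p = 0.0254, whereas Selp and Ripply1 did not, at 0.562 and 0.855.

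The negative interactions included the proteases Mmp13, Mmp1b and Ctsl. Promoters are shown for Mmp13, Mmp1b and Mmp3, their neighbour on the chromosome. That of Ctsl is not shown, so the matches below do not describe the called proteases as a set. Mmp3 was not called in the 12 libraries and was called without shControl replicate 1. Each sequence runs from 250 bases before to 50 bases after the RefSeq start in GRCm38.p6, 5′ to 3′ on the gene's strand, and the capitals mark the only match to the AP-1 site TGAGTCA or its reverse complement TGACTCA. The windows are chr9:7272264-7272563 on the plus strand for Mmp13, chr9:7387977-7388276 on the minus strand for Mmp1b and chr9:7445572-7445871 on the plus strand for Mmp3.
Mmp13: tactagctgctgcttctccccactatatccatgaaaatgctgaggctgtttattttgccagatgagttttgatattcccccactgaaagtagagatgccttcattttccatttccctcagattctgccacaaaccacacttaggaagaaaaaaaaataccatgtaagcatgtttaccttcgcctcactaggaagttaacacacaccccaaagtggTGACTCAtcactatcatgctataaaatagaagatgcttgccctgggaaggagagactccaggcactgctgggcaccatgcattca
Mmp1b: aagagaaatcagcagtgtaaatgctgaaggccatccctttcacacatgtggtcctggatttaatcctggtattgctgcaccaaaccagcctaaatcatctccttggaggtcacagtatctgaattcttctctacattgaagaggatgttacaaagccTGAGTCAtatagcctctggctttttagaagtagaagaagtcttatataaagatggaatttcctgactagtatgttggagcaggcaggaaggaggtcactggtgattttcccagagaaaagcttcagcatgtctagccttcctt
Mmp3: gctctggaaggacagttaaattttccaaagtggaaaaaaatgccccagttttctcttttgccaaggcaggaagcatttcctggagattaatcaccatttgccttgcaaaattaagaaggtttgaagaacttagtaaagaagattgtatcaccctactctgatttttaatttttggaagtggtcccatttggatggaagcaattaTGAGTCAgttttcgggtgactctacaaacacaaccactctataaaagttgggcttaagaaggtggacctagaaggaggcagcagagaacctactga
The matches begin 35, 93 and 46 bases before the start in Mmp13, Mmp1b and Mmp3. Such a match was present in 5.2% of the 32851 promoters of the table and in 5 of the 19 promoters (26.3%) available for the list of extracellular proteases and inhibitors. It describes letters in the window and is no evidence of a bound factor.

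Mmp13, a collagenase, measured 199 and 239 CPM in shTet2 with CI994, 623 and 428 CPM in shControl with CI994, 58.2 and 74.0 CPM in shTet2, and 40.3 and 34.9 CPM in shControl. The knockdown raised it without CI994, by 0.83 ± 0.22, and lowered it with CI994, at -1.25 ± 0.22, without overlap in either arm, and the interaction was -2.07 ± 0.30 (adjusted p = 0.0225). Mmp1b, a relative of the interstitial collagenases, measured 8.03 and 8.85 CPM in shTet2 with CI994, 13.6 and 8.15 CPM in shControl with CI994, 10.4 and 11.01 CPM in shTet2, and 2.29 and 1.49 CPM in shControl. Untreated shControl was the low group and the treated lines overlapped, with an interaction of -2.59 ± 0.37 (adjusted p = 0.0216). How reads shared with its paralogue Mmp1a were counted is not given in the sources used here. Mmp3, the stromelysin, measured 59.8 and 51.4 CPM in shTet2 with CI994, 267 and 178 CPM in shControl with CI994, 69.3 and 62.6 CPM in shTet2, and 118 and 79.2 CPM in shControl. Its interaction was -1.45 ± 0.34 in the 12 libraries (adjusted p = 0.107) and -1.80 ± 0.25 without shControl replicate 1 (adjusted p = 0.00549). Ctsl, the lysosomal protease cathepsin L, measured 2732 and 2809.9 CPM in shTet2 with CI994, 4609.8 and 4096 CPM in shControl with CI994, 2912 and 3296 CPM in shTet2, and 2024 and 2426 CPM in shControl. The knockdown raised Ctsl without CI994 and lowered it with CI994, and its interaction was -1.17 ± 0.15 (adjusted p = 0.0183).

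Of the 25 tested genes of a list of extracellular proteases and inhibitors, which does not hold Mmp1b, 2 passed in the 12 libraries, Mmp13 and Ctsl, both lower where 0.273% of all genes were, with a list median of -0.18 against -0.03 over all genes. Without shControl replicate 1, where 3.03% of genes passed as higher and 3.33% as lower, 3 were higher and 6 lower. The lower ones included the plasminogen activator Plau, the higher ones were Plat, Mmp11 and Timp2. Plat, the tissue-type activator, measured 18.6 and 16.1 CPM in shTet2 with CI994, 12.2 and 10.7 CPM in shControl with CI994, 1.94 and 1.59 CPM in shTet2, and 2.29 and 2.73 CPM in shControl. Plau, the urokinase-type activator, measured 209 and 209 CPM in shTet2 with CI994, 279.7 and 222 CPM in shControl with CI994, 162 and 176 CPM in shTet2, and 99.6 and 99.6 CPM in shControl. The activators thus passed on opposite sides, with interactions of 1.01 ± 0.24 for Plat (adjusted p = 0.0369) and -1.11 ± 0.18 for Plau (adjusted p = 0.00911), both without shControl replicate 1, and neither passed in the 12 libraries.

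Glycolysis and the hypoxia response held 3 negative interactions, Pfkp, Pgk1 and Pdk1. Hypoxia-inducible factors bind a short core sequence and activate many glycolytic genes. The promoters of the 3 members called in the 12 libraries are shown from 250 bases before to 50 bases after the RefSeq start in GRCm38.p6, 5′ to 3′ on the gene's strand, with the core ACGTG or GCGTG, on either strand, in capitals. The windows are chr13:6648722-6649021 on the minus strand for Pfkp, chrX:106186850-106187149 on the plus strand for Pgk1 and chr2:71872974-71873273 on the plus strand for the first listed start of Pdk1.
Pfkp: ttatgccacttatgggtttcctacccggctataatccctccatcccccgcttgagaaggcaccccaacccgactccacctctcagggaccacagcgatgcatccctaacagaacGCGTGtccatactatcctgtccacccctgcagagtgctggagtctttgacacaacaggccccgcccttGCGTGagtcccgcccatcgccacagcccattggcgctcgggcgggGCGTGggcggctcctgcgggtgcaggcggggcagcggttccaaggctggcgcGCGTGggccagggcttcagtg
Pgk1: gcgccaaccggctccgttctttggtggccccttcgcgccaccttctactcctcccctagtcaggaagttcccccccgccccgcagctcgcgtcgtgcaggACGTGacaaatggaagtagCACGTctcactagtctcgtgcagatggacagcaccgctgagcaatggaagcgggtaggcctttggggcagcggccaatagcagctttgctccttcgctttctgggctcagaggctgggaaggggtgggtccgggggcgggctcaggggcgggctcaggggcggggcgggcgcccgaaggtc
Pdk1: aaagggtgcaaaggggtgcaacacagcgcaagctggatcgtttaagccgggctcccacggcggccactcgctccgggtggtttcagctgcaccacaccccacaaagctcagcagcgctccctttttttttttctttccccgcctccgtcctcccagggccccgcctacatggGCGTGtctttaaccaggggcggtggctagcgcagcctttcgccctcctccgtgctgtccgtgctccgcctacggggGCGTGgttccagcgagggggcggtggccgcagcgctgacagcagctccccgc
Pfkp held 4 matches, Pgk1 2 and this start of Pdk1 2, while the second listed start of Pdk1 held 0. The letters ACGTG also lie within the E-box CACGTG. A match was present in 43.8% of all 32851 promoters and in 37 of the 46 promoters (80.4%) available for the list, and it shows letters in the window, not binding.

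The second called member, Pgk1, the phosphoglycerate kinase, measured 863 and 841 CPM in shTet2 with CI994, 741 and 716 CPM in shControl with CI994, 1282 and 1275 CPM in shTet2, and 584 and 569.8 CPM in shControl. CI994 lowered Pgk1 in shTet2 and raised it in shControl, with no overlap of groups, and the interaction was -0.96 ± 0.13 (adjusted p = 0.0210). Pdk1, the kinase that inhibits pyruvate dehydrogenase, measured 35.2 and 27.8 CPM in shTet2 with CI994, 36.7 and 42.5 CPM in shControl with CI994, 89.4 and 83.1 CPM in shTet2, and 49.4 and 54.1 CPM in shControl. Untreated shTet2 was high, and under CI994 the knockdown effect was -0.34 ± 0.14 and did not pass, with an interaction of -1.10 ± 0.20 (adjusted p = 0.0491).

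Of 35 listed members 34 were matched in the files and 31 passed the filter on low values, with Slc2a3, Eno2 and Slc16a3 below it. Of the 31 tested members 3 passed as lower and 0 as higher in the 12 libraries, where 0.273% and 0.414% of all genes did. The median interaction was -0.96 in the 12 libraries, against -0.03 over all genes, and 30 of the 31 values were below 0. Without shControl replicate 1 the median was -0.50, against -0.01 over all genes, and 29 of the 31 values were below 0. After removal of the GC trend 13 members passed as lower in the 12 libraries, where 273 of all 12808 genes did. The library mattered for the size of these values: the members summed to 3610.2 CPM in shControl replicate 1 and 7195 CPM in replicate 2, against 10471 and 11455 CPM in untreated shTet2. In the fit without it, the knockdown passed as higher for 23 members without CI994, where 16.5% of all genes did, and for 8 with CI994, where 19.3% did. Read as responses to CI994, 5 members were higher and 9 lower in shTet2, and 14 were higher and 0 lower in shControl. The background in that fit was 29.2% higher and 28.3% lower in shTet2, and 16.1% higher and 13.6% lower in shControl.

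Members that passed as lower only in the fit without shControl replicate 1 covered several steps of the pathway; those given were chosen after their values were seen. Ldha, the lactate dehydrogenase subunit, measured 1783 and 1748 CPM in shTet2 with CI994, 1639 and 1816 CPM in shControl with CI994, 1908 and 2092 CPM in shTet2, and 657 and 1154 CPM in shControl, with an interaction of -0.85 ± 0.12 (adjusted p = 0.00440). The hypoxia target Car9, a carbonic anhydrase of the cell surface, measured 45.5 and 40.9 CPM in shTet2 with CI994, 43.3 and 43.7 CPM in shControl with CI994, 50.2 and 49.96 CPM in shTet2, and 7.87 and 13.8 CPM in shControl, with an interaction of -1.93 ± 0.37 (adjusted p = 0.0173). In both genes untreated shControl was low and the other 3 groups were close together. Bnip3, a mitophagy receptor induced by hypoxia, had another order, at 43.4 and 43.9 CPM in shTet2 with CI994, 35.4 and 49.0 CPM in shControl with CI994, 111 and 99.96 CPM in shTet2, and 48.2 and 46.0 CPM in shControl. Only untreated shTet2 was high for Bnip3, as for Pdk1, and its interaction was -1.21 ± 0.24 (adjusted p = 0.0180). Hk2, Pgam1, Tpi1, P4ha2 and Higd1a also passed as lower. Pfkm, the muscle-type phosphofructokinase and the 1 member that passed as higher, had an interaction of 0.64 ± 0.14 (adjusted p = 0.0289), so the muscle-type and platelet-type isoforms passed on opposite sides. Eno1 measured 31.7 CPM in shControl replicate 1 and 362 CPM in replicate 2, and its interaction was -1.73 in the 12 libraries and -0.05 without replicate 1.

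**Figure D3:**
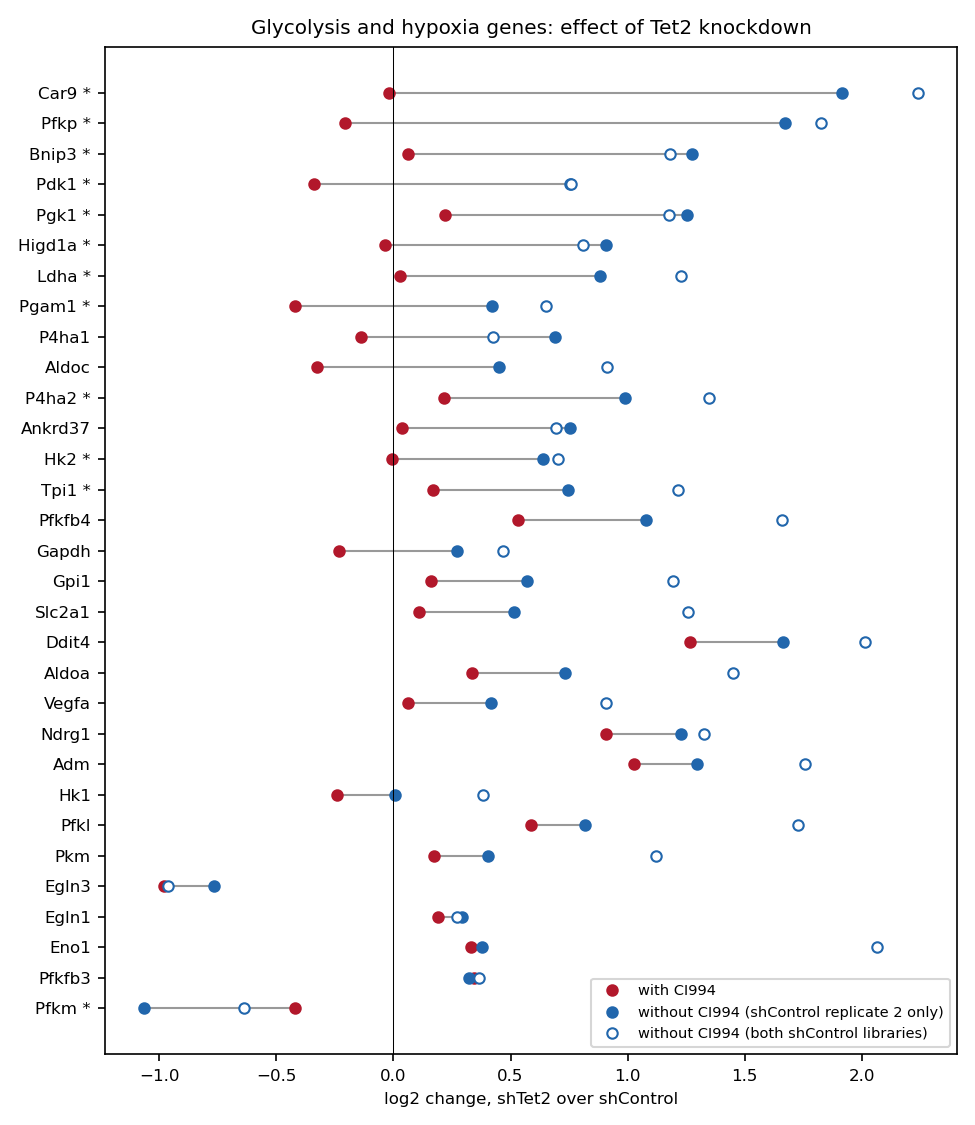
Log2 change of shTet2 over shControl (CPM + 0.5 scale) for the 31 tested glycolysis and hypoxia genes, with CI994 (red) and without it (blue), sorted by the interaction without shControl replicate 1, with the most negative on top. Filled points use shControl replicate 2 alone in the untreated arm, open points both libraries, and stars mark the 12 genes with an adjusted p under 0.05 without replicate 1. Most blue points lie right of the red ones, and for Eno1 the open and filled points are far apart.

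Of 25 tested interferon-stimulated genes Rtp4 passed as higher in the 12 libraries, where 0.414% of all genes did. In the fit without shControl replicate 1, where 3.03% of all genes passed as higher, 5 members did (Rtp4, Bst2, Ifi27, Gbp2 and Isg15) and 0 passed as lower. The median interaction was 0.63 and 0.60, and 22 of 25 values were above 0 in either fit. Bst2, the antiviral protein tetherin, measured 40.9 and 35.7 CPM in shTet2 with CI994, 29.1 and 27.2 CPM in shControl with CI994, 7.60 and 6.77 CPM in shTet2, and 7.55 and 12.3 CPM in shControl. CI994 raised it in both lines, and its interaction without shControl replicate 1 was 1.08 ± 0.16 (adjusted p = 0.00589). Gbp2, an interferon-induced GTPase, measured 5.49 and 5.95 CPM in shTet2 with CI994, 8.45 and 9.46 CPM in shControl with CI994, 7.79 and 6.72 CPM in shTet2, and 28.6 and 22.1 CPM in shControl. Its interaction was 0.85 ± 0.20 without shControl replicate 1. Unlike Bst2 it was lower under CI994 in both lines, more so in shControl, so members of the list reached a positive interaction in different ways. Of 15 MHC class I presentation genes 3 passed as higher without shControl replicate 1, H2-Q4, Tapbp and Tap2, in that fit where 3.03% of all genes did, and 0 did in the 12 libraries. Reads shared between H2 genes of near-identical sequence make H2-Q4 uncertain.

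The knockdown passed as higher for 30 of 43 tested epithelial genes with CI994 and for 35 without, where 6.68% and 10.4% of all genes did, and Dsp was the 1 gene of the list with an interaction in the 12 libraries, a negative one, where 0.273% of all genes had one. Cdh1, E-cadherin, measured 319 and 320.5 CPM in shTet2 with CI994, 34.7 and 36.6 CPM in shControl with CI994, 202 and 207 CPM in shTet2, and 16.3 and 25.7 CPM in shControl. The groups did not overlap in either arm, the knockdown effect was 3.14 ± 0.16 with CI994 and 3.32 ± 0.16 without, and the interaction was -0.17 ± 0.22 (adjusted p = 0.848) and 0.09 ± 0.12 without shControl replicate 1 (adjusted p = 0.680). No interaction of Cdh1 was detected on the log2 scale, while in linear CPM the gap between the lines was wider with CI994. Epcam, another epithelial adhesion molecule, had an interaction of -0.33 ± 0.15 (adjusted p = 0.454). The list had 8 lower and 2 higher calls without shControl replicate 1, where 3.33% and 3.03% of all genes passed. Among the lower ones were the splicing regulator Esrp1 at -0.89 ± 0.15 (adjusted p = 0.0115) and the receptor Erbb3 at -1.12 ± 0.20 (adjusted p = 0.0139). Erbb3 measured 38.1 and 39.3 CPM in shTet2 with CI994, 20.6 and 22.2 CPM in shControl with CI994, 22.7 and 22.01 CPM in shTet2, and 4.07 and 5.75 CPM in shControl, so that the combination was highest and untreated shControl lowest. The list median was -0.45 in the 12 libraries, -0.05 without shControl replicate 1 and 0.05 with library size as the only scaling in the latter fit, so no direction is given for the list as a whole.

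Mesenchymal genes split. Vim measured 416 and 422 CPM in shTet2 with CI994, 1659 and 1691 CPM in shControl with CI994, 322 and 351 CPM in shTet2, and 1461 and 1525 CPM in shControl, and its interaction was 0.12 ± 0.15 (adjusted p = 0.848). Zeb1, a repressor of epithelial genes, measured 15.8 and 14.7 CPM in shTet2 with CI994, 50.9 and 54.4 CPM in shControl with CI994, 18.4 and 17.3 CPM in shTet2, and 57.8 and 52.1 CPM in shControl, with an interaction of -0.19 ± 0.18 (adjusted p = 0.789). Both were lower in shTet2 in either arm, by about the same log2 change. Cdh2, N-cadherin, instead measured 438 and 469.6 CPM in shTet2 with CI994, 209 and 235 CPM in shControl with CI994, 329 and 325 CPM in shTet2, and 243 and 248 CPM in shControl. Its knockdown effect was 1.02 ± 0.10 with CI994 and 0.44 ± 0.10 without, and the interaction was 0.58 ± 0.14 (adjusted p = 0.0999) and 0.53 ± 0.11 without shControl replicate 1 (adjusted p = 0.0206). Fn1, fibronectin, measured 8023 and 6858 CPM in shTet2 with CI994, 6299.8 and 6667 CPM in shControl with CI994, 2232 and 2326 CPM in shTet2, and 2358 and 4099.9 CPM in shControl. CI994 raised it in both lines, and its interaction was 0.61 ± 0.27 (adjusted p = 0.435) and 0.95 ± 0.14 without shControl replicate 1 (adjusted p = 0.00589). Col5a1, a fibrillar collagen chain, was the 1 member of 21 called in the 12 libraries, as lower, where 0.273% of all genes were. It measured 0.380 and 0.313 CPM in shTet2 with CI994, 1.84 and 2.31 CPM in shControl with CI994, 0.0472 and 0 CPM in shTet2, and 0 and 0 CPM in shControl. Its interaction was -1.67 ± 0.23 (adjusted p = 0.0210). The groups without CI994 could not be told from 0 reads, and the value ranged from -4.99 to -1.22 over 23 alternative fits. Of 23 EMT transcription factors 0 passed in the 12 libraries, and 2, Sox4 and Tead2, were higher without shControl replicate 1, where 3.03% of all genes were.

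Cholesterol synthesis had 0 calls among 23 genes in the 12 libraries and 5 lower ones without shControl replicate 1 (among them Sc5d, Nsdhl, Msmo1 and Stard4), where 0.273% and 3.33% of all genes passed as lower, with medians of -0.53 and -0.31. The lathosterol desaturase Sc5d measured 87.6 and 92.4 CPM in shTet2 with CI994, 70.2 and 72.2 CPM in shControl with CI994, 110.0 and 112 CPM in shTet2, and 60.2 and 58.8 CPM in shControl. Its interaction was -0.67 ± 0.10 without shControl replicate 1. Untreated shTet2 was highest, and the lines lay closer together under CI994. The median of 35 ribosomal protein genes was -0.51 in the 12 libraries, -0.11 without shControl replicate 1 and -0.01 in the latter with library size as the only scaling, so its value depended on that library and on the scaling. Among the 14 histone deacetylase genes, which include the targets of CI994, 0 passed in the 12 libraries, where 0.687% of all genes did. Hdac1, Hdac2, Hdac3 and Hdac8 had interactions of -0.27, 0.15, -0.11 and -0.04. Those of Hdac5 and Hdac11 were 0.41 and 0.65 in the 12 libraries, and 1.31 and 1.02 without shControl replicate 1. Hdac2 was at -0.31 without that library. Among 26 p53 targets, 17 other chromatin co-repressors and 5 cyclin-dependent kinase inhibitors 0 members passed in the 12 libraries. With 0.687% of all genes passing, that does not set these lists apart.

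Another line of the series carried an shRNA against Mbd3, a subunit of the NuRD deacetylase complex, and allowed the response to CI994 in shTet2 to be set beside that in another knockdown. Its groups were shMbd3 with the same CI994 treatment and shMbd3 without it. For 19 of the 20 genes with the largest interactions the response in shMbd3 lay between those in shTet2 and shControl, as it did for 28.9% of all genes. These 20 were chosen for a large gap between shTet2 and shControl, and the responses share libraries with the interaction, so this is a description. The exception was Scn3a, at 0.126 and 0.0622 CPM in shMbd3 with CI994 and 0 and 0 CPM in shMbd3, with a response of 0.24 ± 0.20. The difference between the responses in shTet2 and shMbd3 was tested without any shControl library in it, and 4 genes passed (0.0312%), Cyp21a1, Scn3a, Ppbp and U90926, named because they are few, with 979 at an unadjusted p under 0.05 and 0 by edgeR. Scn3a differed by 4.89 ± 0.28 (adjusted p = 0.000260). Without shControl replicate 1, which then leaves the shared spread, 545 genes passed (4.26%). Of the 20 genes 7 were among them, Scn3a, Xirp2, Fry, Mmp1b, Mmp13, Pfkp and Lama3. For Pfkp the responses were 0.60 ± 0.14 in shTet2, 1.61 ± 0.14 in shMbd3 and 2.64 ± 0.14 in shControl, and shTet2 differed from shMbd3 by -1.01 ± 0.15 in that fit (adjusted p = 0.0127). For Cdh17 they were -0.72 ± 0.14, -0.27 ± 0.14 and 1.18 ± 0.14 in the same order, and shTet2 did not differ from shMbd3 past the threshold (adjusted p = 0.655, and 0.174 without shControl replicate 1).

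**Figure D4:**
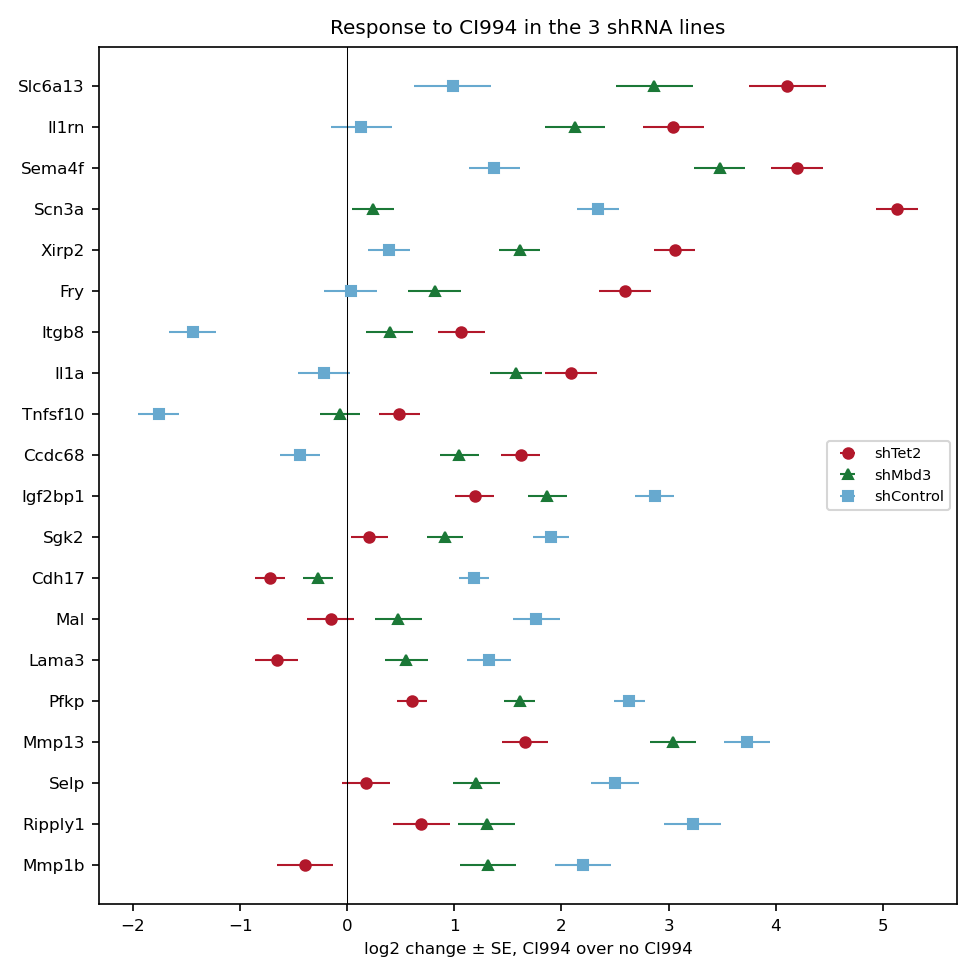
Log2 response to CI994 with its standard error (CPM + 0.5 scale, 12 libraries) for the 20 genes with the largest interactions in shTet2 (red circles), shMbd3 (green triangles) and shControl (blue squares). The triangles lie between the other symbols for 19 of the 20 genes and below both for Scn3a.

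The 20 genes with the largest interactions were chosen among genes that passed both with and without shControl replicate 1, so their values in those fits are a description and no sign of stability. The largest positive interactions ran between 2.06 and 3.12 in the 12 libraries and between 1.85 and 3.23 without it, and the negative ones between -2.59 and -1.68 and between -2.94 and -1.55. Across all genes the median interaction changed by -0.41 between the lowest and the highest decile of genes by GC content in the 12 libraries, and by 0.49 without that library, so neither fit is free of a trend with GC. Of the 88 genes 79 passed in all 3 of the fit on 12 libraries, the fit without shControl replicate 1 and the fit on 12 libraries after removal of the GC trend. The part of GC content in the remaining genes was not tested.

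**Figure D5:**
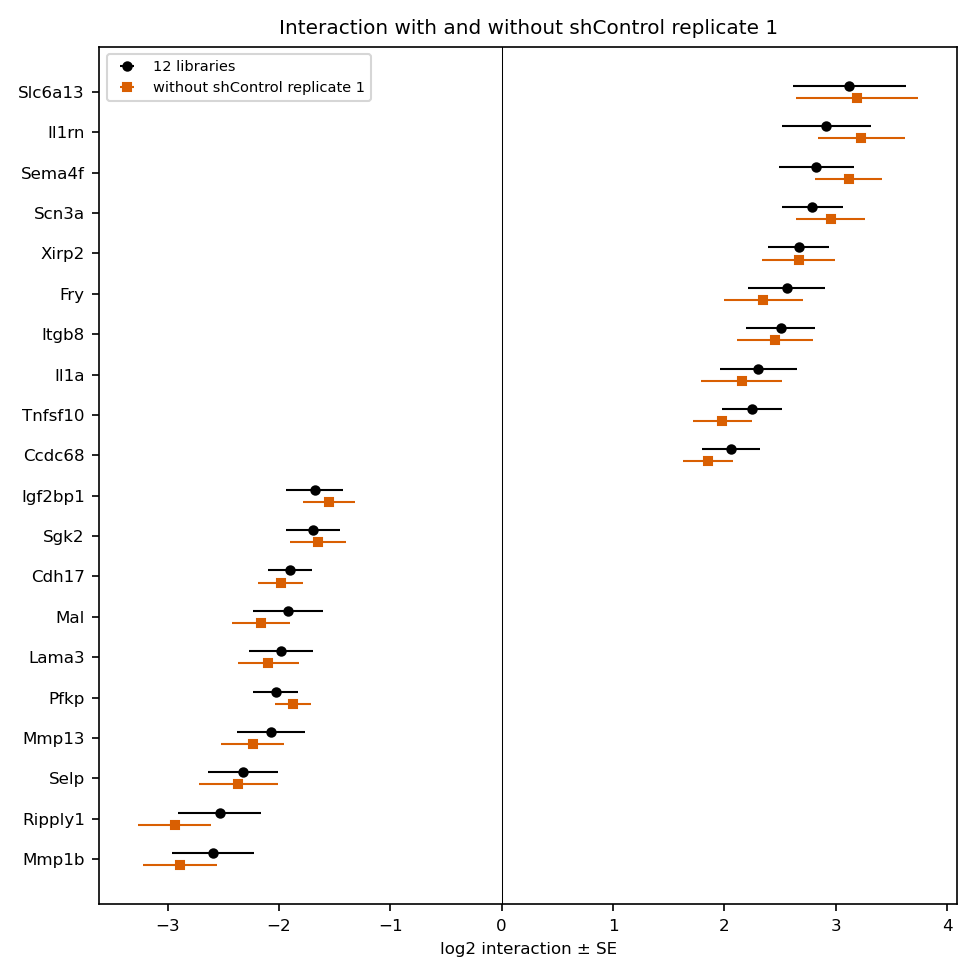
Log2 interaction with its standard error (CPM + 0.5 scale) for the 20 genes with the largest values, in the fit on 12 libraries (black circles) and without shControl replicate 1 (orange squares). The genes were chosen because they passed in both fits, so that the same sign in both is no test.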

How the data were processed

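Total RNA from 2 independent experiments was made into stranded libraries, per the labels' protocols. STAR and the mm10 build are named in the submitters' processing notes, and the tool that counted reads is not given in the sources used here. The authors deposited CPM per gene for 12 M3 shRNA libraries, among them the 8 of the interaction; 8 further libraries of the series were not used. The deposited CPM were whole multiples of 1 read for 100% of values (tolerance 0.01 reads), which gave 16086082 to 24977595 reads per library. Intervals from these reads would cover counting error only.

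CPM were divided by TMM factors and taken as log2(CPM + 0.5). Genes with at least 0.5 CPM in 2 or more of the 12 libraries were kept. limma 3.58.1 in R 4.3.3 was fitted with trend and robust settings to the 6 groups (6 residual degrees of freedom) with no covariate, and p-values were adjusted by Benjamini-Hochberg over all genes tested, with a threshold of 0.05. The whole reads were also tested with edgeR 4.0.16 and DESeq2 1.42.0. The fit was checked on simulated counts with the same dispersion in every library and no GC trend. Its error rate in these data, where shControl replicate 1 stood apart, was not tested in that way. Other alternatives were size factors, pseudocounts, the filter, a GC trend removed per library, a replicate block, the compared groups alone and each library left out. GC content was known for 95.6% of the genes tested. Symbols were matched for 12777 of the 12808 tested IDs, and promoters come from RefSeq.

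Named genes were a list of 14 genes, of which Snai1 and Cdkn1a had interactions of -0.68 and -0.38 (adjusted p = 0.690 and 0.456), the 10 largest interactions on each side that passed with and without shControl replicate 1 at a mean of 5 CPM or more in the highest group (numbered gene models left out), and up to 3 members on each side from each list that passed in both. Genes named beyond these, which are list members that passed in the fit without shControl replicate 1 alone, Pfkm and Eno1, were chosen after their values were seen. The members and lists were chosen with earlier results of these data known.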

Additional observations from a re-analysis of the deposited data

Results flagged for a closer look

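The effect of the knockdown differed with and without CI994, by the test of the interaction itself, for 88 genes and, among those named by rule, for 28. The log2 interactions of the positive ones were 3.12 for Slc6a13, 2.92 for Il1rn, 2.82 for Sema4f, 2.79 for Scn3a and 2.67 for Xirp2. They were 2.56 for Fry, 2.51 for Itgb8, 2.31 for Il1a, 2.25 for Tnfsf10 and 2.09 for Stmn2, and 2.06 for Ccdc68, 2.03 for Itga8 and 1.71 for Rtp4. The negative ones were -2.59 for Mmp1b, -2.53 for Ripply1, -2.32 for Selp, -2.07 for Mmp13 and -2.03 for Pfkp. They were -1.98 for Lama3, -1.92 for Mal, -1.90 for Cdh17, -1.69 for Sgk2 and -1.68 for Igf2bp1, and -1.67 for Col5a1, -1.27 for Dsp, -1.17 for Ctsl, -1.10 for Pdk1 and -0.96 for Pgk1.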

How the results depend on the processing

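The count of 88 interactions was 56 with a pseudocount of 0.1, 541 after removal of the GC trend, 38 in edgeR, 263 in DESeq2 and 0 with the 4 compared groups alone (limma, 1083 at an unadjusted p under 0.05), and 0 to 4900 with a library left out. For the knockdown with CI994 (2039 genes) the counts were 3706 after GC removal, 5245 with the compared groups alone and 1004 to 5189 with a library left out. For the knockdown without CI994 (2994) they were 4863, 327 and 1336 to 8133 in the same order. For CI994 in shTet2 (3108) the compared groups alone gave 7365 and libraries left out 922 to 7374. For CI994 in shControl (4303) these were 0 (limma, 2586 at an unadjusted p under 0.05) and 1141 to 9003. For the response in shTet2 minus that in shMbd3 (4) the counts were 38 with no filter, 1 and 24 with pseudocounts of 0.1 and 1, 73 after GC removal, 0 in edgeR (832 unadjusted), 43 in DESeq2, 425 with the compared groups alone and 2 to 547 with a library left out.

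Deviations of same-numbered libraries correlated at 0.0957 to 0.524 over 15 pairs of groups. With only 2 numbers the libraries were not treated as pairs. With the replicate number as a block 175 interactions passed, and with the block and GC removal together 1185, against 4692 and 5898 for the knockdown with and without CI994, 5278 for CI994 in shTet2 and 265 for shTet2 minus shMbd3. Without shControl replicate 1 (815) the block gave 2991 and the block with GC removal 2700.

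Some signs turned. Mbd3 was at 0.50 without shControl replicate 1 and at -2.89 without replicate 2 (limma adjusted p = 2.74e-05), Hdac2 at -0.31 and 0.60, and Cdh1 at 0.0861 and -0.44. Hdac8 was at 0.0305 and -0.10 without replicate 1 or 2 of shTet2. Rhox5 was at 0.14 and -0.88 without replicate 1 or 2 of shControl with CI994. Xirp2 was at -1.27 in edgeR and -0.58 in DESeq2, and Lpl, with 0 reads in untreated shTet2, at 3.20 and 2.44. The cause was not tested.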
